A study of Homo sapiens with 6 samples.

Results

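P4-ATPases are membrane pumps that move phospholipids from the outer or luminal leaflet of a membrane to the cytosolic leaflet, and most of them leave the endoplasmic reticulum only when paired with an accessory subunit of the TMEM30 (CDC50) family. Their best known task is to keep phosphatidylserine on the inner face of the plasma membrane, where its appearance on the outer face marks dying cells for uptake. TMEM30A serves most of the pumps in most tissues, TMEM30B has a narrower expression and fewer known partners, and ATP9A and ATP9B work without a TMEM30 subunit.

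The 10 genes described here are the accessory subunit genes TMEM30A and TMEM30B and the catalytic subunit genes ATP8A1, ATP8B1, ATP8B2, ATP9A, ATP9B, ATP10B, ATP11A and ATP11B, taken by gene symbol from 60605 genes in the deposited table. The set was selected on the measured rise of TMEM30B in ELAPOR1 against vector cells in these same libraries, so the differences given below describe these genes and carry no p-values. The libraries came from SW620, an established human colorectal cancer line from a lymph node metastasis. In the ELAPOR1 group, 3 libraries came from cells stably transduced with a lentivirus (pLVX-IRES-Puro) carrying ELAPOR1, which encodes a transmembrane protein of endosomes and lysosomes. In the vector group, 3 libraries came from cells transduced with the same lentivirus without an insert. Both viruses were packaged in HEK293T cells. Cells of both groups were infected at an MOI (infectious virus particles per cell) of 20, placed under puromycin (2 ug/ml) and grown with 10% serum. The labels do not say whether the 3 libraries of a group were transduced or cultured apart from each other. The p-values below therefore reflect no more than the scatter among these libraries, possibly a technical one.

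The libraries held between 16401813 and 20571924 counts. ELAPOR1 itself averaged 21126 ± 362 CPM (counts scaled to library size) in ELAPOR1 cells and 10.4 ± 1.47 CPM in vector cells (SD, n = 3 each). Counts from the construct and from the cell's own gene cannot be told apart. Across all genes, 3427 of 16003 passed an adjusted p of 0.05 by the quasi-likelihood test of edgeR and are referred to as called. Of 13 colon epithelial marker genes, only the transcription factor gene CDX1 stayed under 1 CPM in all libraries, and the 13 summed to between 8017 and 8045 CPM in ELAPOR1 libraries and between 8642 and 9035 CPM in vector libraries. Of the 12 tested, 2 rose and 6 fell, where 10.0% of all tested genes were called as higher and 11.4% as lower. KRT8 and KRT18 dominate the sum, at 3782 and 2381 CPM on average in ELAPOR1 cells. CEACAM5, named here after its values were seen like the next 4, averaged 12.0 CPM in ELAPOR1 cells and 96.3 CPM in vector cells. CDH1 averaged 244 CPM in ELAPOR1 cells and 414 CPM in vector cells. KRT20 fell by 1.67 on the log2 scale, while CDH17 and LGR5 rose by 1.05 and 0.81. Of the 7 fibroblast markers 3 stayed under 1 CPM in all 6 libraries, and the list summed to between 25.5 and 30.9 CPM in ELAPOR1 libraries and between 17.7 and 19.03 CPM in vector libraries. LUM and ACTA2 rose within it, and the part of these shifts in the values below was not tested. ACTA2 had 43 counts in the ELAPOR1 libraries together and 12 counts in the vector libraries together. It shares 380 exonic bases with FAS on the opposite strand, which had 229 counts and a log2 fold change of 1.07. The 6 immune markers summed to between 7.86 and 8.92 CPM in ELAPOR1 libraries and between 5.66 and 8.89 CPM in vector libraries. The 4 endothelial markers summed to between 1.97 and 2.81 CPM in ELAPOR1 libraries and between 2.42 and 2.73 CPM in vector libraries. Of these, 3 immune and 2 endothelial markers passed the filter, and none was called. The macrophage marker CD68, named here after its values were seen, was not tested and had 6, 9 and 10 counts in ELAPOR1 libraries and 1, 0 and 4 counts in vector libraries, without overlap. Of the exonic length of CD68, 81.7% is shared with a gene on the same strand (AC016876.2), which had 353 counts over all libraries. The part of CD68 in the values below was not tested. The 5 kidney or neuronal markers, chosen for the packaging line, stayed below 1 CPM even when summed. CDH5, KDR and NEFM had no count in any library.

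Of the 10 genes, 9 passed the filter on low counts and 4 of these were among the called genes, 1 higher and 3 lower, where 21.4% of all tested genes were called, 10.0% as higher and 11.4% as lower. The groups did not overlap for 7 of the 9, where the share over all tested genes was 33.8%. The median log2 fold change was 0.08 over the 9 genes and 0.00 over all tested genes. Since the set was put together with this contrast in view, nothing is read from these counts. Where a single gene of the set is said below to be called or not, this likewise only describes it. Such a call is no support for a difference.

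The accessory subunit genes moved in opposite directions. TMEM30B (ENSG00000182107, GRCh38 chromosome 14, 61277370 to 61281761, minus strand) is annotated with 1 exon in GENCODE 29. It had 52, 40 and 39 counts in ELAPOR1 libraries 1 to 3, against 2, 6 and 7 counts in vector libraries 1 to 3. Scaled to exonic length and library total, these were 0.72, 0.47 and 0.49 FPKM in ELAPOR1 libraries and 0.02, 0.07 and 0.1 FPKM in vector libraries. The lowest ELAPOR1 library thus lay well above the highest vector library, and ELAPOR1 library 1 was the highest of its group. The mean was 2.49 ± 0.614 CPM in ELAPOR1 cells and 0.272 ± 0.162 CPM in vector cells (SD, n = 3 each). TMEM30B rose by 3.19 on the log2 scale (standard error, SE, 0.464), a 9.12-fold difference that rests on 15 counts in all 3 vector libraries together. In bulk RNA, fewer cells expressing the gene and less RNA per cell cannot be told apart.

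TMEM30A (chromosome 6, 75252924 to 75284948, minus strand), the widely used accessory subunit gene, was lower in ELAPOR1 cells. Its level was 24.9, 25.1 and 25.02 FPKM in ELAPOR1 libraries, against 29.65, 27.9 and 28.3 FPKM in vector libraries. All 3 ELAPOR1 libraries lay below all 3 vector libraries, and the ELAPOR1 libraries lay close together. TMEM30A fell by 0.17 on the log2 scale (SE 0.0396), with 7389 counts in the ELAPOR1 libraries together and 8876 counts in the vector libraries together.

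The coding sequences of the TMEM30 genes (1053 bases in TMEM30B and 1083 in TMEM30A, without the stop codon) had 58.5% identical bases over 1020 aligned positions. No 50-base word of a TMEM30A transcript occurred in a transcript of any other gene, TMEM30B included. The 60-base coding stretches in which they are most alike are shown 5′ to 3′ on the coding strand, from GENCODE 29 on GRCh38. Capitals mark the 16 bases that differ, and the stretches lie at chr14:61281053-61281112 and chr6:75284499-75284558, both on the minus strand.
TMEM30B: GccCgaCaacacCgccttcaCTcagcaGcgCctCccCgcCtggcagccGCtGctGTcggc
TMEM30A: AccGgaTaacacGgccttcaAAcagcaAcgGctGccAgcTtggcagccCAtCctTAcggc
Even where they are most alike, the genes differ at 16 of 60 positions.

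A closer copy is the pseudogene TMEM30BP1 on chromosome X, with 86.9% identical bases over 1030 aligned positions of the TMEM30B transcript. It had 9, 2 and 4 counts in ELAPOR1 libraries and 3, 4 and 11 counts in vector libraries, so the groups overlapped there, and no 50-base word of TMEM30B occurred in it. TMEM30B overlaps PRKCH, a protein kinase C gene on the opposite strand, over 356 exonic bases in GENCODE 29, or 7.96% of its exonic length. The sources used here do not state whether strand was used in counting, and reads of that stretch may belong to either gene. PRKCH itself had 18, 27 and 22 counts in ELAPOR1 libraries and 19, 28 and 27 counts in vector libraries. Its log2 fold change was -0.07, at an edgeR-adjusted p of 0.935.

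**Figure D1:**
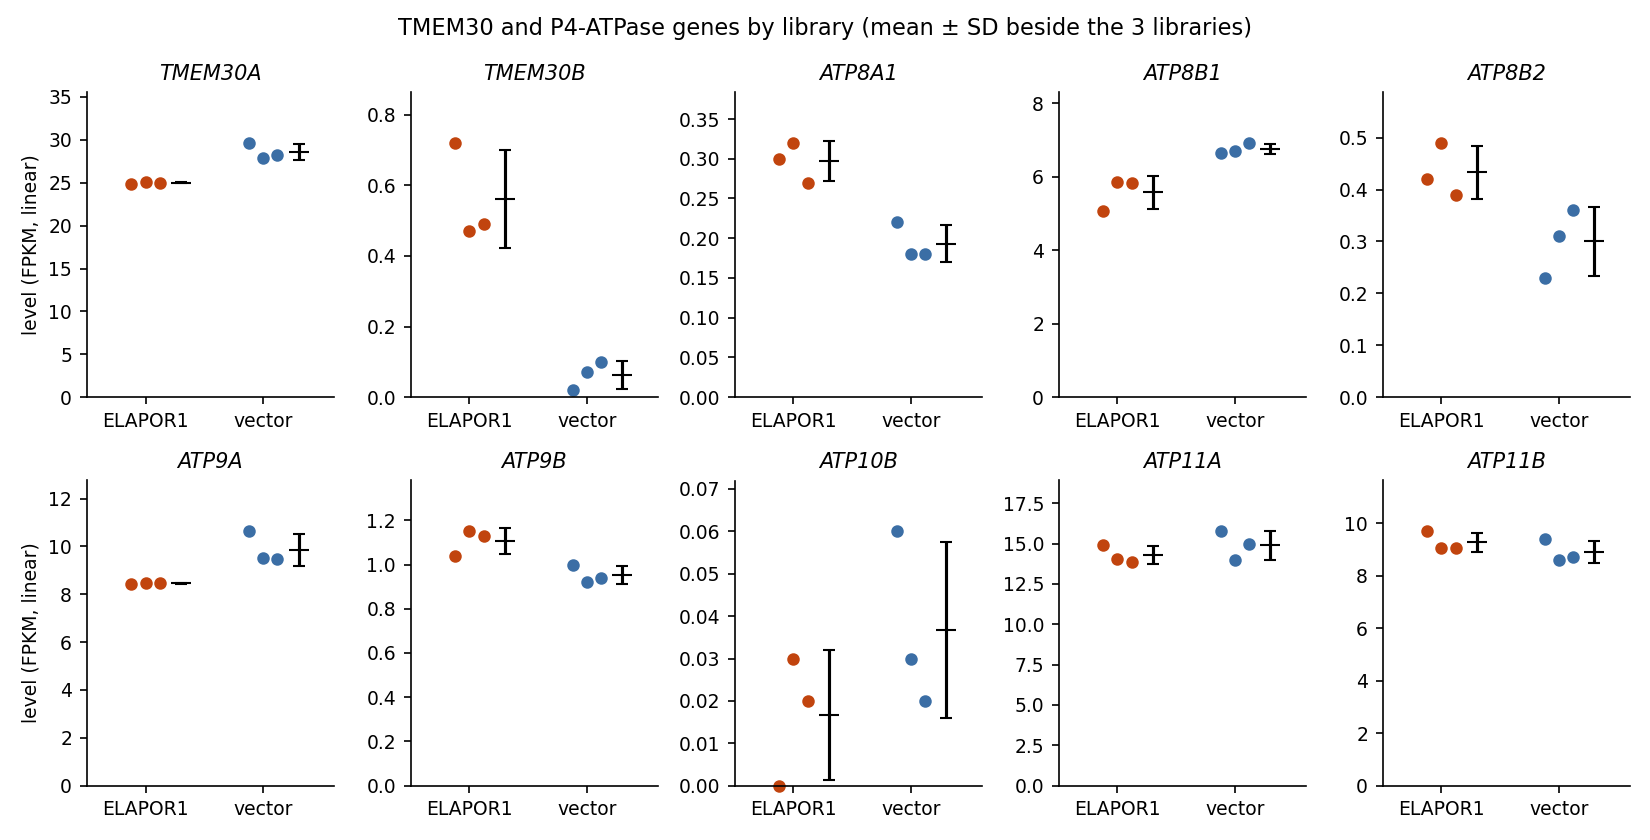
Level of each of the 10 genes in FPKM on a linear axis from 0, with each library as a point and the mean ± SD of 3 libraries beside it, ELAPOR1 left and vector right. TMEM30B lies between 0.47 and 0.72 FPKM in ELAPOR1 libraries and between 0.02 and 0.1 FPKM in vector libraries, while TMEM30A lies between 24.9 and 25.1 FPKM in ELAPOR1 libraries and between 27.9 and 29.65 FPKM in vector libraries.

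Set beside TMEM30A, TMEM30B stayed a small fraction of the accessory subunit transcripts. It made up 2.81%, 1.84% and 1.92% of the TMEM30A plus TMEM30B level (FPKM) in ELAPOR1 libraries, against 0.0674%, 0.25% and 0.352% in vector libraries. The means were 2.19% ± 0.537 in ELAPOR1 cells and 0.223% ± 0.144 in vector cells (SD, n = 3 each). TMEM30B differed by 0.497 FPKM between the group means and TMEM30A by -3.61 FPKM, ELAPOR1 minus vector. The summed level of both genes was therefore lower in ELAPOR1 cells, at 25.6 ± 0.0643 FPKM, than in vector cells, at 28.7 ± 0.894 FPKM, and the groups did not overlap.

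The 8 catalytic subunit genes summed to 39.9, 39.5 and 39.07 FPKM in ELAPOR1 libraries and to 43.96, 40.2 and 41.6 FPKM in vector libraries. In FPKM the lowest vector library lay only just above the highest ELAPOR1 library, and under other scalings the groups overlapped. With TMM-scaled CPM the sums were 430, 418 and 414 in ELAPOR1 libraries and 456, 416 and 432 in vector libraries. The ELAPOR1 mean was 94.1% of the vector mean in FPKM, 96.8% in CPM, and 96.5% in FPKM without vector library 1. The summed TMEM30 level was 0.642 to 0.653 times the summed ATPase level in ELAPOR1 libraries and 0.675 to 0.695 times that level in vector libraries, without overlap in FPKM or CPM. FPKM divides by all counts of a library, those of ELAPOR1 included, which were 2.06% to 2.12% of all counts in ELAPOR1 libraries.

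**Figure D2:**
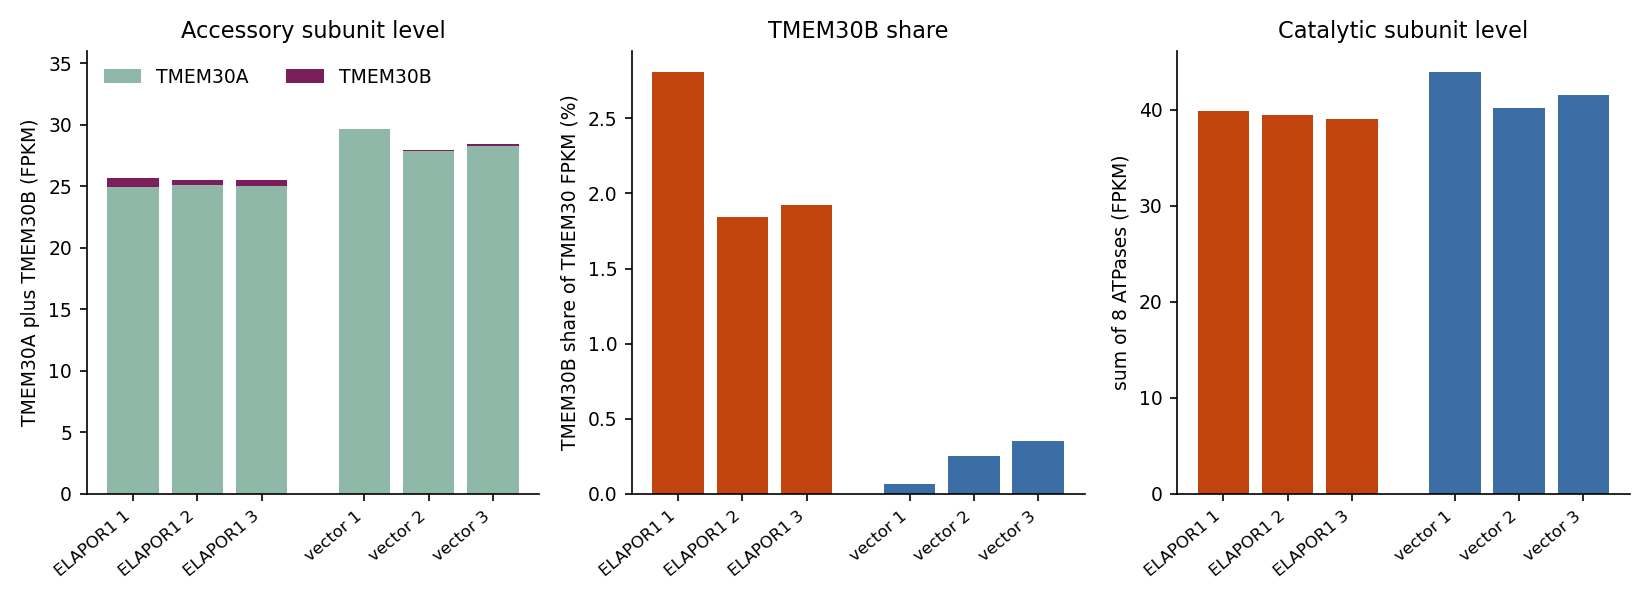
Left, TMEM30A and TMEM30B levels stacked (FPKM) in each library, with ELAPOR1 libraries left of vector libraries. Middle, TMEM30B as a percentage of that sum. Right, summed FPKM of the 8 ATPase genes. All bars start at 0. TMEM30B is a thin cap on TMEM30A in ELAPOR1 libraries, between 1.84% and 2.81% of the sum.

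The catalytic subunits carry the phosphorylation site common to P-type ATPases, an aspartate followed by lysine, threonine, glycine and threonine. It occurs in frame exactly 1 time in the principal coding sequence of each of the 8 ATPase genes and in neither TMEM30 gene. The codons of 7 of them are shown 5′ to 3′ on the coding strand, from GENCODE 29 on GRCh38, to set the pumps apart from the accessory subunits. Capitals mark the 5 codons of the site, with 4 codons before and 2 after in lower case.
ATP8A1: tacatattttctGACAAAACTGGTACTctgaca
ATP8B1: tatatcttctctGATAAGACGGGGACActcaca
ATP9A: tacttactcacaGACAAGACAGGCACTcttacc
ATP9B: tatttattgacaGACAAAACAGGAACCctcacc
ATP10B: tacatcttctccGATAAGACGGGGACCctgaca
ATP11A: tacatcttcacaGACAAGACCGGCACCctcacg
ATP11B: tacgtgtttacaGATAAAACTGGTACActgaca
They lie at chr4:42574669-42574701, chr18:57688348-57688380, chr20:51670099-51671136, chr18:79277175-79303614, chr5:160634418-160634450, chr13:112831381-112831413 and chr3:182865462-182865494 in the order printed. The stretches of ATP9A and ATP9B each span an intron. The sites encode the same 5 amino acids, not all with the same codons.

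In both groups the same 4 pumps made up most of the catalytic transcripts. ATP11A, ATP9A, ATP11B and ATP8B1 together held 95.0% to 95.6% of the summed ATPase level (FPKM) in ELAPOR1 libraries and 96.4% to 96.6% in vector libraries. ATP11A (chromosome 13, 112690038 to 112887168, plus strand), a plasma membrane flippase of phosphatidylserine and phosphatidylethanolamine, was the most abundant. It had 14.9, 14.1 and 13.9 FPKM in ELAPOR1 libraries, against 15.8, 13.98 and 14.98 FPKM in vector libraries. The groups overlapped, and the log2 fold change was -0.04 (SE 0.0383).

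The endosomal relative ATP11B (chromosome 3, 182793503 to 182921629, plus strand) had 9.70, 9.07 and 9.07 FPKM in ELAPOR1 libraries and 9.41, 8.60 and 8.74 FPKM in vector libraries. These groups overlapped as well, with a log2 fold change of 0.08 and a standard error of 0.0499. ATP9A and ATP8B1 were lower in all 3 ELAPOR1 libraries than in any vector library. ATP9A (chromosome 20, 51596514 to 51768390, minus strand), which acts on endosomes and in recycling, had 8.44, 8.49 and 8.47 FPKM in ELAPOR1 libraries, against 10.6, 9.50 and 9.46 FPKM in vector libraries. It fell by 0.20 on the log2 scale (SE 0.0524). Vector library 1 was the highest of its group, and without it ATP9A was no longer among the called genes, at a log2 fold change of -0.15.

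ATP8B1 (chromosome 18, 57646426 to 57803315, minus strand) is a phosphatidylcholine flippase of apical membranes, mutated in a familial cholestasis. It had 5.06, 5.85 and 5.83 FPKM in ELAPOR1 libraries, against 6.65, 6.71 and 6.92 FPKM in vector libraries. It fell by 0.25 on the log2 scale (SE 0.0666). ELAPOR1 library 1 was the lowest of all 6, and without it ATP8B1 was no longer among the called genes, at a log2 fold change of -0.19. ATP8B1 and ATP11B overlap antisense transcripts that had at most 78 counts over all libraries.

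The 4 scarce pumps had higher mean levels in ELAPOR1 cells for ATP9B, ATP8A1 and ATP8B2, and a lower one for ATP10B. The first 3 were not among the called genes, and ATP10B was not tested. ATP9B, the relative of ATP9A at the trans-Golgi network, had 1.04, 1.15 and 1.13 FPKM in ELAPOR1 libraries and 1.00, 0.92 and 0.94 FPKM in vector libraries. ATP8A1, a phosphatidylserine flippase of Golgi and endosomal membranes, had 0.30, 0.32 and 0.27 FPKM in ELAPOR1 libraries and 0.22, 0.18 and 0.18 FPKM in vector libraries. ATP8B2, a phosphatidylcholine flippase of the plasma membrane, had 0.42, 0.49 and 0.39 FPKM in ELAPOR1 libraries and 0.23, 0.31 and 0.36 FPKM in vector libraries. In all 3 the groups did not overlap, which in CPM held for 33.8% of all tested genes, and nothing is read from it. The lowest ELAPOR1 library lay close to the highest vector library for ATP9B, at 1.04 against 1.00 FPKM. For ATP8B2 these were 0.39 against 0.36 FPKM. The log2 fold changes were 0.23 for ATP9B, 0.64 for ATP8A1 and 0.56 for ATP8B2, with standard errors of 0.105, 0.259 and 0.261. ATP9B shares 728 exonic bases with an antisense gene that had no count.

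ATP10B, a pump of glucosylceramide and phosphatidylcholine in late endosomes and lysosomes, did not pass the filter on low counts and was not tested. It had 0, 6 and 5 counts in ELAPOR1 libraries and 14, 6 and 4 counts in vector libraries. The groups overlapped, and a difference was not detectable at this depth.

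Ordered by mean level per length in ELAPOR1 cells, the genes ran TMEM30A, ATP11A, ATP11B, ATP9A, ATP8B1, ATP9B, TMEM30B, ATP8B2, ATP8A1 and ATP10B. In this order only TMEM30B and ATP8B2 overlapped as neighbours, at 0.47 to 0.72 and 0.39 to 0.49 FPKM. In vector cells TMEM30B stood in ninth place, and the order of ATP9A and ATP11B was the opposite. The vector order ran TMEM30A, ATP11A, ATP9A, ATP11B, ATP8B1, ATP9B, ATP8B2, ATP8A1, TMEM30B and ATP10B. There only TMEM30B and ATP10B overlapped as neighbours, at 0.02 to 0.1 and 0.02 to 0.06 FPKM. ATP9A at 8.44 to 8.49 FPKM lay below ATP11B at 9.07 to 9.70 FPKM in ELAPOR1 libraries, and above it in vector libraries, at 9.46 to 10.6 against 8.60 to 9.41 FPKM.

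**Figure D3:**
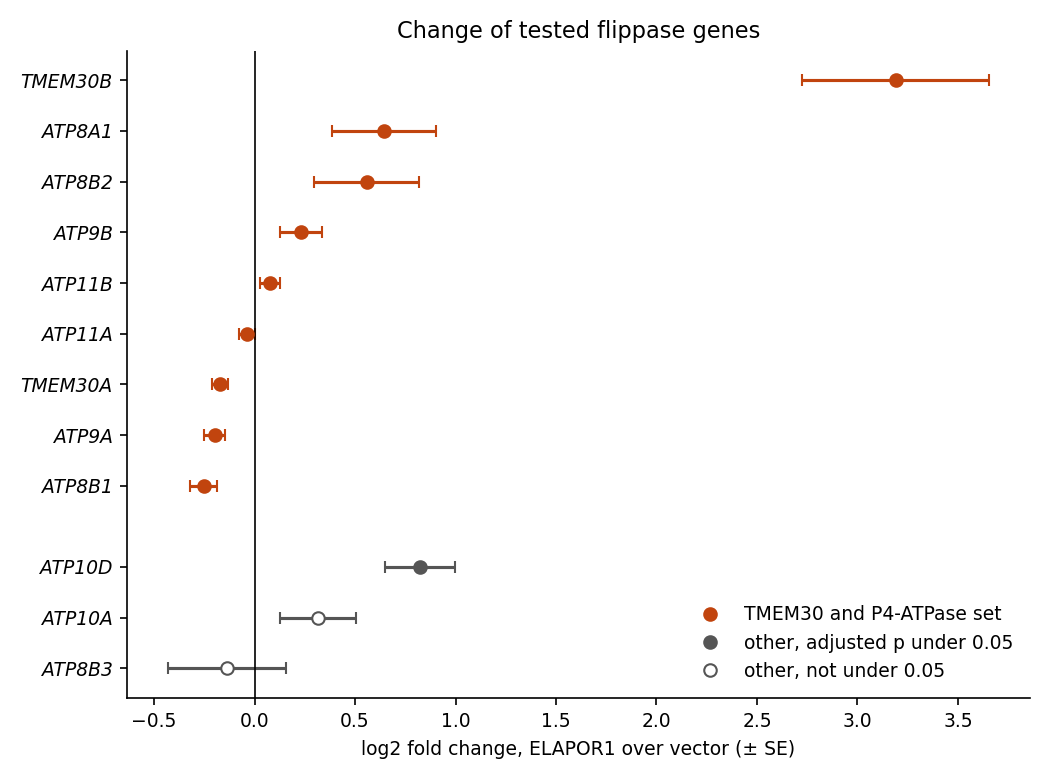
Log2 fold change of ELAPOR1 over vector with its standard error (edgeR) for the 9 tested genes and, below, 3 tested flippase genes outside the set. Only for those outside the set does the fill mark an adjusted p under 0.05. TMEM30B stands at 3.19, apart from the others, which lie between -0.25 and 0.82.

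Other genes of the flippase family were looked up by symbol and lie outside the set. Of 7 such genes with a row of counts, 4 passed the filter, and 1 was called. Beside the counts of this list and of those below, 21.4% of all tested genes were called. This was 10.0% as higher and 11.4% as lower, and nothing is read from the counts per list. ATP10D, a glucosylceramide flippase of the plasma membrane, had 5.66, 9.40 and 9.65 CPM in ELAPOR1 libraries, against 4.90, 4.84 and 4.25 CPM in vector libraries. All ELAPOR1 libraries were higher, with library 1 only just so. It rose by 0.82 on the log2 scale (SE 0.174), at an edgeR-adjusted p of 0.000165. Limma on FPKM did not call it, with adjusted p of 0.130 at the highest. ATP10A and ATP8B3 had log2 fold changes of 0.32 and -0.14, at edgeR-adjusted p of 0.258 and 0.813. The sign of the ATP8B3 value turned in at least 1 alternative. ATP8B4 had 4, 10 and 3 counts in ELAPOR1 libraries and 15, 11 and 12 counts in vector libraries, too few to pass the filter, and it shares 557 exonic bases with SLC27A2 on the opposite strand, which had 3366 counts over all libraries. ATP8A2 had 1 count over all libraries and the pseudogene TMEM30CP none.

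Among scramblases and their relatives, which let lipids move between leaflets without using energy, 4 of 14 tested genes rose and 2 fell. VMP1, a scramblase of the endoplasmic reticulum that acts in autophagy, rose by 0.43 on the log2 scale to 222 ± 5.47 CPM in ELAPOR1 cells, against 165 ± 1.95 CPM in vector cells (SD, n = 3 each), at an edgeR-adjusted p of 5.65e-16. XK, which works with the lipid transfer protein VPS13A, rose to 1.63 ± 0.234 CPM in ELAPOR1 cells, against 0.719 ± 0.189 CPM in vector cells, at an edgeR-adjusted p of 0.0306. The XK call was lost without ELAPOR1 library 1 or 3 and without vector library 1 or 2, at an adjusted p of up to 0.148. ANO10, an anoctamin of internal membranes, fell by 0.44, at an edgeR-adjusted p of 0.00679. It shares 170 exonic bases with ABHD5 on the opposite strand, which had 1571 counts and a log2 fold change of 0.07. VMP1 shares 162 exonic bases with PTRH2 on the opposite strand, which had 3659 counts and a log2 fold change of -0.04. TMEM41A, a relative of the scramblase TMEM41B, fell by 0.20, at an edgeR-adjusted p of 0.0275, a call lost without ELAPOR1 library 1 or 2 and without vector library 1 or 2. It shares 909 exonic bases with MAP3K13 on the opposite strand, which had 4364 counts and a log2 fold change of -0.22. ANO6 and TMEM41B, named here after their values were seen, rose by 0.18 and 0.14 on the log2 scale, at edgeR-adjusted p of 0.00168 and 0.0400, and the TMEM41B groups overlapped. ANO6, the calcium-activated scramblase of the plasma membrane, had 114 ± 3.46 CPM in ELAPOR1 cells and 100.4 ± 2.96 CPM in vector cells. XKR8, the scramblase that caspases activate, had a log2 fold change of 0.00 and an edgeR-adjusted p of 0.995. Over the list, log2 fold changes had a median of 0.09.

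Of 8 tested ABC transporters that move lipids outward, 1 rose and none fell. ABCB1, the multidrug efflux pump P-glycoprotein, had 7.20, 5.17 and 7.18 CPM in ELAPOR1 libraries, against 2.91, 2.47 and 2.30 CPM in vector libraries. All 3 ELAPOR1 libraries lay above all 3 vector libraries. ABCB1 rose by 1.34 on the log2 scale (SE 0.206), at an edgeR-adjusted p of 3.29e-07. The median of this list was -0.17.

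Among 13 genes of phosphatidylserine synthesis and transfer, 1 rose and 2 fell. OSBPL5, which moves phosphatidylserine from the endoplasmic reticulum to the plasma membrane, fell to 3.13 ± 0.270 CPM in ELAPOR1 cells, against 6.80 ± 0.971 CPM in vector cells (SD, n = 3 each), a log2 fold change of -1.12, at an edgeR-adjusted p of 3.39e-06. SERINC5, of the serine incorporator family, rose by 0.29, at an edgeR-adjusted p of 1.57e-07. PRELID3B, which carries phosphatidylserine within mitochondria, fell by 0.12, at an edgeR-adjusted p of 0.00582, a call lost without ELAPOR1 library 1 or vector library 2. The phosphatidylserine synthase genes PTDSS1 and PTDSS2, named here after their values were seen, had log2 fold changes of -0.05 and 0.09, at edgeR-adjusted p of 0.435 and 0.505. The median of the list was 0.01.

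Of 16 regulators and partners of flippases, 2 rose and 3 fell, each by less than 0.2 on the log2 scale. CDC42, a GTPase of cell polarity, fell to 245 ± 9.25 CPM in ELAPOR1 cells, against 278 ± 7.21 CPM in vector cells, at an edgeR-adjusted p of 2.88e-05. EHD1, a membrane-shaping ATPase of recycling endosomes, fell by 0.20, at an edgeR-adjusted p of 0.00764. The EHD1 groups overlapped, and its call was lost without ELAPOR1 library 2 or 3, without vector library 2 and with limma on FPKM. PI4KA, which makes phosphatidylinositol 4-phosphate at the plasma membrane, rose by 0.15, at an edgeR-adjusted p of 0.0423, with overlapping groups. That call was lost in 9 of 14 alternatives, namely without ELAPOR1 library 1 or 2, without vector library 2 or 3, with DESeq2, with library sizes alone, with no filter and with both forms of limma on FPKM. ARFGEF2, an Arf exchange factor of the Golgi named here after its values were seen, rose by 0.11 at an edgeR-adjusted p of 0.0268, with overlapping groups. PI4KA shares 225 exonic bases with SNAP29 on the opposite strand, which had 4873 counts and a log2 fold change of 0.27. The median of the list was -0.03.

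In the wider P-type ATPase family, outside the flippases, 2 of 15 tested genes rose and 4 fell. The accessory beta subunits of the sodium pump, a pairing that resembles that of TMEM30 and P4-ATPases, moved in opposite directions. ATP1B3 rose by 0.20 and ATP1B1 fell by 0.19 on the log2 scale, at edgeR-adjusted p of 0.000122 and 0.0143. ATP1B3 stood at 138 ± 1.22 CPM in ELAPOR1 cells and 120 ± 3.70 CPM in vector cells, and ATP1B1 at 49.04 ± 2.69 CPM in ELAPOR1 cells and 55.96 ± 2.18 CPM in vector cells (SD, n = 3 each). The ATP1B1 call was lost without ELAPOR1 library 2 or vector library 1. ATP1B1 shares 192 exonic bases with NME7 on the opposite strand, which had 2578 counts and a log2 fold change of -0.01. ATP2B4, a plasma membrane calcium pump, fell by 0.98 and ATP2C2, a Golgi calcium and manganese pump, by 0.60, at edgeR-adjusted p of 1.24e-09 and 0.000761. The ATP2C2 call was lost with limma on FPKM. The polyamine pump gene ATP13A3, named here after its values were seen, fell by 0.11 on the log2 scale, at an edgeR-adjusted p of 0.00759. The median of the list was 0.05.

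**Figure D4:**
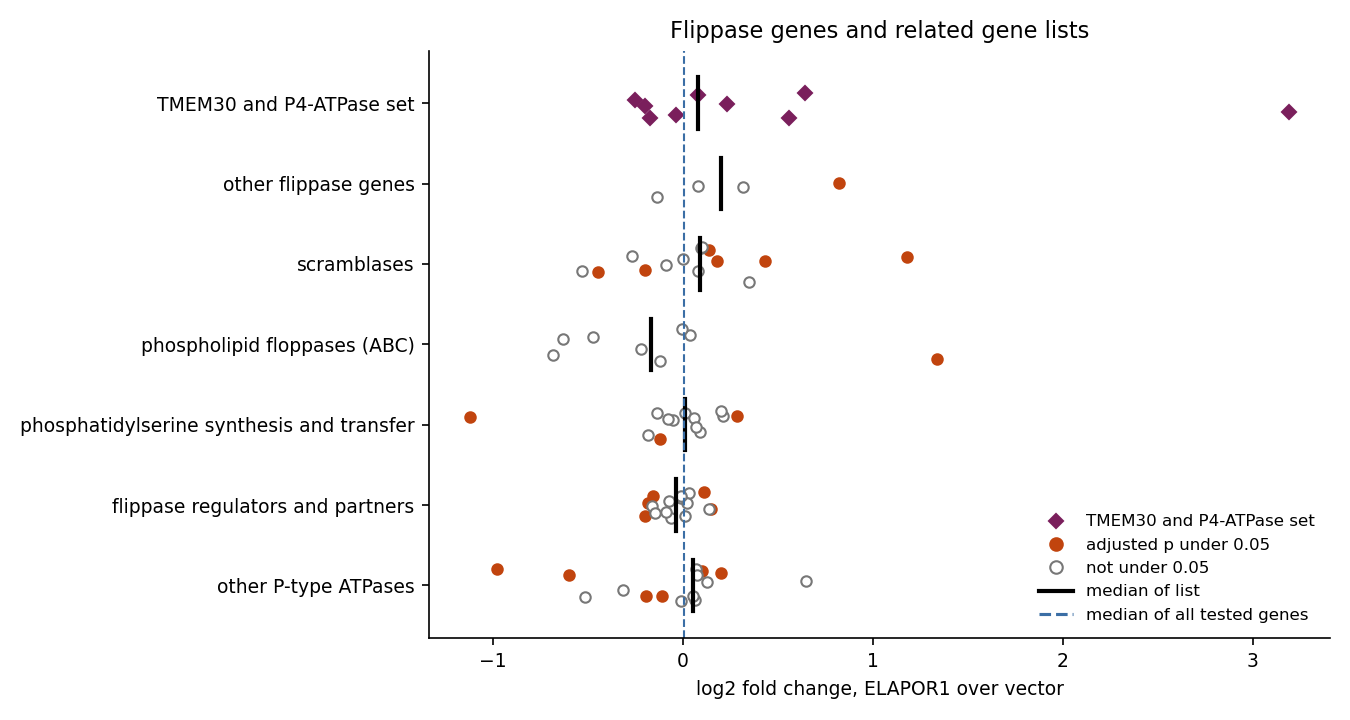
Log2 fold change of ELAPOR1 over vector for each tested gene of the flippase set and of 6 related lists. Diamonds are the flippase set, with no mark for a test, and circles of the other lists are filled where the adjusted p was under 0.05 by edgeR. Black bars are list medians, which lie between -0.17 and 0.20, and the dashed line is the median of all tested genes at 0.00.

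TMEM30B was set beside its neighbours on chromosome 14. The nearest tested genes that do not overlap it are SLC38A6, an amino acid transporter gene 194 kb to the left, and an unnamed gene (ENSG00000232774) 289 kb to the right. Their log2 fold changes were 0.09 and 0.03, at edgeR-adjusted p of 0.755 and 0.970. The next tested genes on either side went in opposite directions. TRMT5, a tRNA methyltransferase gene at 296 kb, rose by 0.29 and HIF1A, the oxygen-regulated transcription factor gene at 414 kb, fell by 0.20, at edgeR-adjusted p of 0.00195 and 1.34e-06. No tested gene within 1 Mb came near the log2 fold change of TMEM30B.

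**Figure D5:**
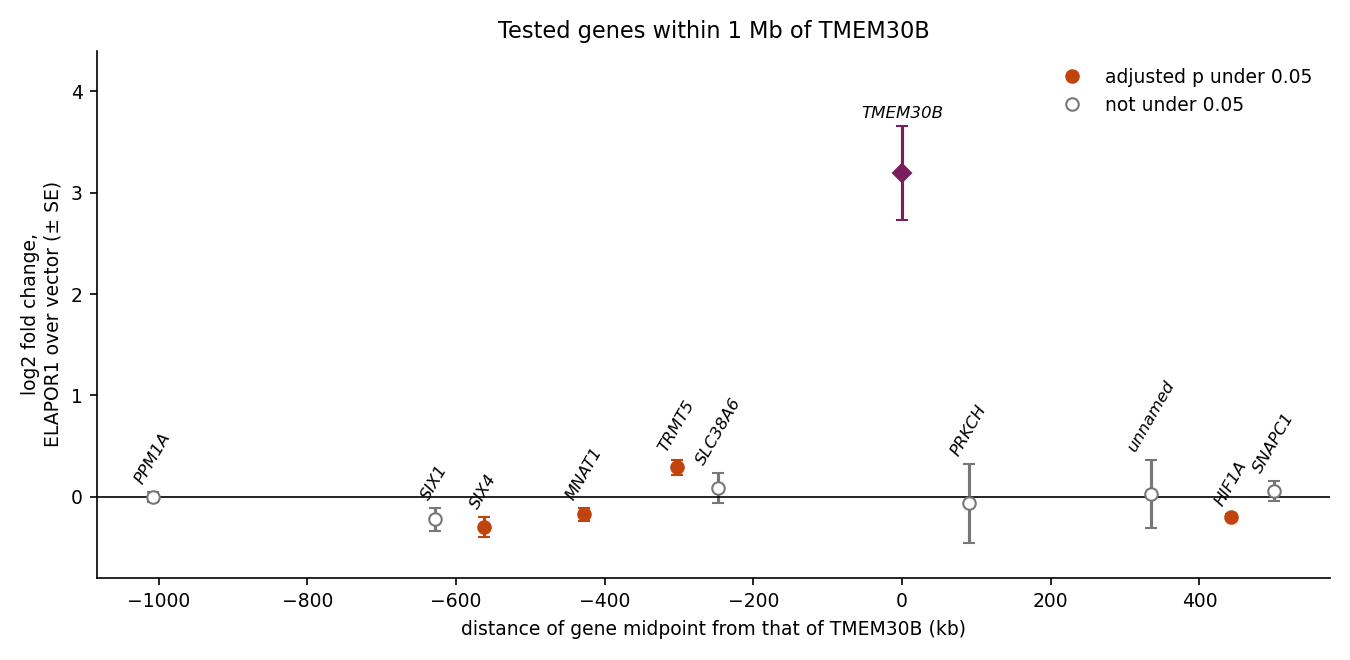
Log2 fold change of ELAPOR1 over vector with its standard error (edgeR) for the tested genes within 1 Mb of TMEM30B, by distance between gene midpoints in kb. The diamond is TMEM30B at 3.19, with no mark for a test. Circles are filled where the adjusted p was under 0.05, and the other genes lie between -0.30 and 0.29.

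Among 1352 tested protein-coding genes at 0.5 to 2 times the mean level of TMEM30B, the 5 most like it over the 6 libraries were CD8B2, DIP2C, GRK3, GAB1 and MGAT4A. Likeness was the Euclidean distance between mean-centred log2(CPM + 1) values, which was 0.335, 0.335, 0.465, 0.515 and 0.533 in that order. All 5 were higher in every ELAPOR1 library than in any vector library, which is part of how they were chosen. CD8B2, a close copy of the T cell coreceptor gene CD8B whose reads may not be separable, had 4.34 ± 0.414 CPM in ELAPOR1 cells and 0.787 ± 0.295 CPM in vector cells (SD, n = 3 each). MGAT4A, an N-glycan branching enzyme gene, had 2.70 ± 0.174 CPM in ELAPOR1 cells and 0.489 ± 0.417 CPM in vector cells.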

How the data were processed

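Read counts per gene were deposited by the authors without normalization, and FPKM values were deposited beside them. Per the submitters' processing notes, the tools were HISAT2 2.0.1, HTSeq 0.6.1, cutadapt 1.9.1 and DESeq2 with build GRCh38. No strand setting is stated there. All 142222 FPKM values with a count lay within 0.01 of count over exonic length and library total. ELAPOR1 was formerly KIAA1324, hence columns named K were read as ELAPOR1 and those named NC as vector.

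The test was the two-sided quasi-likelihood test of edgeR 4.0.16 (R 4.3.3) after filterByExpr and TMM scaling, with p adjusted by Benjamini-Hochberg over 16003 genes and genes called at 0.05. The standard error (SE) of a log2 fold change is its size divided by the root of F. CPM were scaled by TMM. The fit was tested on simulated data. Library pairs of 1 group differed by a chi-square of 2.43 to 3.62 per gene on average, more than sampling noise, so none was merged.

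The members and lists were chosen with earlier results of these data known. Named are all members, ELAPOR1, the other flippase genes, up to 4 called genes with the largest change per list (or the smallest p), overlapping and neighbouring genes of TMEM30B, and the 5 genes most like it. Marker lists are reported as sums, with some markers named after their values were seen. Some genes of the lists and a sequence are not reported here. Gene models and sequences came from GENCODE 29, where 4 of 10 members have the files' coordinates and the others differ by up to 291 bases. Alternatives were RLE factors, library sizes alone, DESeq2 1.42.0, other filters, a replicate block, leaving out each library, and limma 3.58.1 on log2 FPKM with pseudocounts of 1 or 0.1 for genes reaching 0.5 FPKM in 3 libraries.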

Additional observations from a re-analysis of the deposited data

How the results depend on the processing

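The main test called 3427 genes, and the count was 2133 and 2098 with limma on log2(FPKM + 1) and log2(FPKM + 0.1), with 727 higher and 1406 lower, and 713 higher and 1385 lower. Of the related lists together, 22 genes were called, 11 in each direction, against 13 with either pseudocount in limma on FPKM, 4 higher and 9 lower, and 20 with library sizes alone, 8 higher and 12 lower. Leaving out 1 library gave 14 to 20, the lowest without ELAPOR1 library 1. The limma alternatives tested fewer genes, 57 of the lists in place of 70, and TMEM30B, ATP8A1 and ATP8B2 were below their filter. The count of called members was 4 and became 3 in those alternatives, without ELAPOR1 library 1 and without vector library 1. None of the 9 tested members changed direction in any alternative that gave a value. The log2 fold change of TMEM30B ranged from 2.79 to 3.6 and that of TMEM30A from -0.19 to -0.15. The TMEM30B share differed by 1.97 percentage points between the groups, and the summed ATPase level in ELAPOR1 cells was 94.1% of that in vector cells. The share difference was 1.59 points with CPM and 1.66 to 2.14 without 1 library. The ATPase level was 96.8% with CPM, 94.8% with TPM and 92.3% to 96.5% without 1 library, the highest without vector library 1, and the groups overlapped in CPM and TPM. With the replicate block, 3361 genes, 4 members and 22 related genes were called. The numbers were not treated as a pairing, since the labels do not say that they pair the libraries. Same-numbered libraries had deviations from their group means correlated at -0.026 to -0.016. Of 17 called related genes with the largest changes in their lists, 8 kept their call in every alternative that gave a value. Depth limits TMEM30B, ATP10B and ATP8B4, with 2 to 15 counts per vector library.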
